A study of Mus musculus with 2 samples.

Results

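Basal cells of the adult mouse mammary gland were compared by how much of their RNA came from genes of the contractile apparatus. The cells came from 1 library of total epithelial cells (Lin-CD24+) and were chosen in 2 steps. A cell was taken as basal when it held 5 or more counts of Krt5 and Krt14 together, the keratins of the outer epithelial layer, and fewer than 8 counts of Krt8, Krt18 and Krt19 together, the keratins of the inner layer. Of 3302 cells, 1179 passed the first gate and 953 passed both. Each of the 953 cells was then ranked by its contractile share, the counts of Acta2, Myl9 and Tagln as a percentage of all its counts. The 238 cells of the top quartile are called contractile-high and the 238 cells of the bottom quartile contractile-low. Both groups were thus chosen by the measured counts of these 8 genes. From these, 174 pairs of 1 contractile-high and 1 contractile-low cell were formed, with total counts that differed by no more than 0.1 on the log2 scale. All 8073 cells of the series came from adult female mice of the inbred strain FVB/NJ, 8 mice in total, which were untreated, and the other 4771 cells were a library of sorted basal cells (Lin-CD29hiCD24+). In both sorts the Lin- gate removed red blood cells, leukocytes and endothelial cells. The mice of a library were pooled before capture, so the cells cannot be assigned to animals, and both groups of cells lay in the same library and the same pool. With 1 library per sort there was no replicate, and no test was run. Every interval given below is a 95% interval that covers counting error only.

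Myoepithelial cells form the outer, basal layer of the mammary duct. They are epithelial cells that also build a smooth muscle apparatus, and during lactation they contract in response to oxytocin and push milk along the ducts. In smooth muscle, a rise in calcium activates myosin light chain kinase, which phosphorylates the regulatory light chain of myosin so that myosin can pull on filaments of smooth muscle actin. Tropomyosin, calponin and caldesmon bind the actin filament, and myosin phosphatase reverses the phosphorylation. Many genes of this apparatus carry CArG boxes, short AT-rich elements bound by serum response factor (SRF) with its partners of the myocardin family. Acta2 encodes smooth muscle actin, Myl9 the regulatory light chain of myosin and Tagln the actin-binding protein transgelin.

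The total epithelial library held 9227651 counts, between 802 and 12967 in a cell, and the median cell had 2425.5. The 2 libraries shared 28 barcodes, and 3 of the matched cells carried 1 of them. Before matching, contractile-high cells were deeper, with a median of 1965 counts against 1475.5. After matching the medians were 1734 and 1629.5, and the 174 cells of each group held 320642 and 316567 counts. Krt14 and Krt5 admitted every cell and check nothing. Krt14 stood at 121 counts per 10000 in contractile-high and 117 in contractile-low cells, and Krt5 at 8.94 and 8.92. Throughout, levels are counts per 10000 counts of the cells outside Acta2, Myl9 and Tagln. The other cells used below are the 1879 luminal-keratin cells of the library, which had 8 or more counts of Krt8, Krt18 and Krt19 and fewer than 5 of Krt5 and Krt14, with a median depth of 3043 counts. Among genes of basal cells that the gates did not use, Krt17 stood at 84.4 and 50.5 per 10000 in contractile-high and contractile-low cells against 0.353 in luminal-keratin cells, and Sparc at 19.9 and 20.4 against 0.131. For genes that luminal cells do not make, luminal-keratin cells give the background found in cells of another type. Their gate left out cells with 5 or more counts of Krt5 and Krt14, so this background does not measure mixed droplets.

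Cells of other types were scarce in both groups. The pericyte markers Rgs5, Notch3, Pdgfrb, Kcnj8 and Abcc9 had 0 counts in contractile-high and 2 in contractile-low cells. For pericytes, which are themselves contractile, the summed counts of a wider list of 14 genes were 26 and 16. Ptprc, Lyz2, Tyrobp and Cd3e of leukocytes were at 0 in both groups, which held 19 and 52 counts of the 12 immune genes listed. A single contractile-low cell held 27 of the 52, and 21 of the 39 Cd74 counts in that group lay in 1 cell. The endothelial list of 12 genes summed to 3 and 8 counts. Of the fibroblast markers, Col1a1, Col1a2, Col3a1 and Lum were at 0 in contractile-high cells and had 2, 5, 2 and 1 counts in contractile-low cells, whereas Dcn had 79 and 105. The 16 fibroblast genes summed to 390 and 548 counts, and no cell held more than 10 or 12 of them. When every cell with a count of a defining marker of these types was left out, 120 pairs remained, and the genes at least 1.5-fold higher and lower, described below for all pairs, numbered 69 and 32.

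The contractile share defined the groups, so its values are a description. Among the 953 cells it ran from 0.131% to 7.63%, with a median of 2.57%. The last cell inside the bottom quartile had 1.661% and the first cell outside it 1.663%. At the other end, the last cell outside the top quartile had 3.597% and the first cell inside it 3.598%. Matched contractile-high cells had a median of 4.21% and matched contractile-low cells 1.22%. The keratin gates cut through a continuum in the same way. Among the cells that passed, 21 held exactly 5 basal keratin counts and 39 held 7 luminal keratin counts, 1 under the limit. Another 38 cells missed the first gate by 1 count and 34 missed the second by 1 count.

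**Figure D1:**
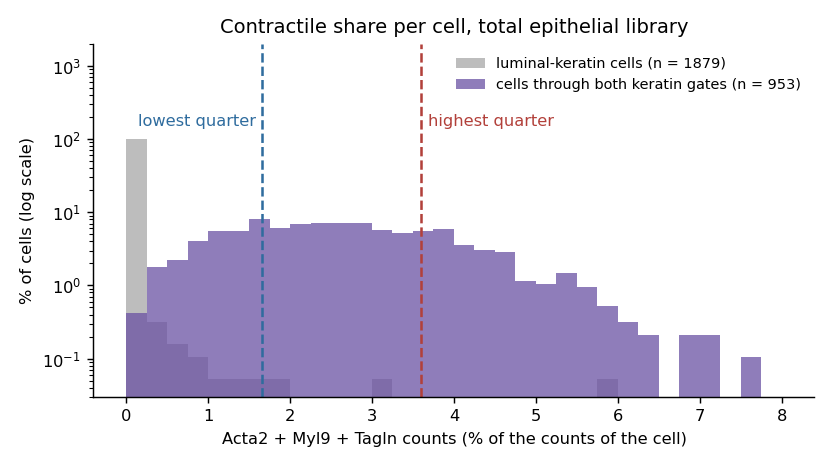
Distribution of the contractile share per cell in the total epithelial library, as the percentage of cells (log axis) against the counts of Acta2, Myl9 and Tagln as a percentage of the counts of the cell. Purple bars are the 953 cells through both keratin gates and grey bars the 1879 luminal-keratin cells. Dashed lines mark the edges of the bottom quartile at 1.661% and the top quartile at 3.598%, which both lie inside 1 continuous peak.

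Contractile-low cells were not without contractile RNA. In each contractile-low cell at least 1 Acta2 count was present, with a median of 13.5 and a highest value of 40, against 22, 55 and 163 as lowest, median and highest values in contractile-high cells. Over the 4 quartiles of the 953 cells, Acta2 stood at 77.3, 148, 220 and 332 counts per 10000. Even the bottom quartile therefore lay far above the 1.16 per 10000 of luminal-keratin cells. Myl9 ran from 12.04 in the lowest to 43.0 in the top quartile, with a background of 0.164, and Tagln from 26.7 to 88.6, with a background of 0.297. A gene that is left out of the ranking gives a value that the ranking did not use. When the cells were ranked by Myl9 and Tagln alone, Acta2 was 2.49-fold higher in contractile-high cells (interval 2.40 to 2.59, 189 pairs). Myl9 was 2.87-fold higher when it was left out (2.56 to 3.21), and Tagln was 2.51-fold higher (2.33 to 2.70). The 3 genes thus moved together from cell to cell, by less than in the full ranking, where their ratios were 4.20, 3.61 and 3.43.

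The sequences upstream of 4 genes are shown because they carry, or lack by a single base, the CArG box of smooth muscle genes. They are the 250 bases before the RefSeq start in GRCm38.p6, written 5′ to 3′ on the strand of the gene. Each match to the CArG box, exact or with 1 base off, is in capitals. Here 1 base off means 1 G or C in the AT-rich middle, with the CC and GG ends intact. Boxes with a changed end base were not searched. Acta2 and Myl9 are ranking genes, Myl6 was higher in contractile-high cells, and Chil1 was the gene with the lowest ratio. They lie at chr19:34255374-34255623 on the minus strand, chr2:156775214-156775463 on the plus strand, chr10:128493010-128493259 on the minus strand (the downstream one of its 2 RefSeq starts) and chr1:134181906-134182155 on the plus strand.
Acta2: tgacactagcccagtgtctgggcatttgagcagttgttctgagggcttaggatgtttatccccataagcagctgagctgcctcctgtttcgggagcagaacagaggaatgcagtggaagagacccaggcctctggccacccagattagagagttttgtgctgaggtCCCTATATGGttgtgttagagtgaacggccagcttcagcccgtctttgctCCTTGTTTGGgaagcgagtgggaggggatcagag
Myl9: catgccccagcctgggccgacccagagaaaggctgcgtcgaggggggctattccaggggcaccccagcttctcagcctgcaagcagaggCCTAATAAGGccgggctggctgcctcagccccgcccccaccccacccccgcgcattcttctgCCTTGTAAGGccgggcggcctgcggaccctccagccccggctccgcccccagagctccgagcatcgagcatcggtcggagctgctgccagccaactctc
Myl6: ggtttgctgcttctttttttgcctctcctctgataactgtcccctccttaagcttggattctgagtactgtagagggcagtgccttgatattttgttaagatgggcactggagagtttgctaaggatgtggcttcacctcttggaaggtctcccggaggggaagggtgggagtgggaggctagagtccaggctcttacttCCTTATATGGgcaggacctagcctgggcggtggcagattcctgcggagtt
Chil1: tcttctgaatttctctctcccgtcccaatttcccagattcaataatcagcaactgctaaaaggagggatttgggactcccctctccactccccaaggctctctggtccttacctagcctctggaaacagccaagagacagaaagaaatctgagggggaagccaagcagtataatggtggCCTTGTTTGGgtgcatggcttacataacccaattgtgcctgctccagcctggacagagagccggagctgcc

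Exact matches lay 161 bases before the start of Myl9 and 50 before that of Myl6. Acta2 had none, but 2 elements with 1 base off, 84 and 34 bases before its start. The Chil1 element, 71 bases before the start, has the same 10 letters as the second element of Acta2. A match is a description of letters and not of binding. The 27025 genes with a RefSeq window were searched on both strands. Of these, 1.62% held an exact CArG box, and 9.78% an exact box or one with 1 base off in its middle. Among the 810 genes with a window that were compared between the groups, as described below, the shares were 2.10% and 10.5%. Of the genes at least 1.5-fold higher in contractile-high cells, 76 had a window and 4 of them (5.26%) held an exact box, namely Cnn2, Eif2s1, Myl6 and Psma6. Among the genes at least 1.5-fold lower the count was 1 of 35 (2.86%), Egr2. With 1 base off in the middle allowed, the shares were 13.2% of the higher and 14.3% of the lower genes. The lower genes thus had the larger share by that measure. In the list of smooth muscle genes described below, 3 of 22 (13.6%) held an exact box. With 1 base off in the middle allowed the count was 5 of 22 (22.7%). The numbers of genes are small. Tpm2, Cnn1, Mylk and Igfbp2 had no exact box in these windows and none with 1 base off in its middle.

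Outside the 3 ranking genes and 5 gating keratins, 1031 genes had 100 or more counts over both matched groups and were compared. A gene was called when its ratio, with a pseudocount of 0.5 added to both counts, was 1.5-fold or more in either direction. By that rule 104 genes were higher in contractile-high cells (10.1% of those compared) and 47 were lower (4.56%), and the median log2 ratio over all 1031 genes was 0.0057. Of the 15 genes with the highest ratios, 6 belonged to the list of smooth muscle genes described next, namely Actg2, Tpm2, Cnn1, Mylk, Flna and Myh11, and the highest of all was the secreted Igfbp2. The 15 genes with the lowest ratios were led by Chil1, and none was in that list.

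**Figure D2:**
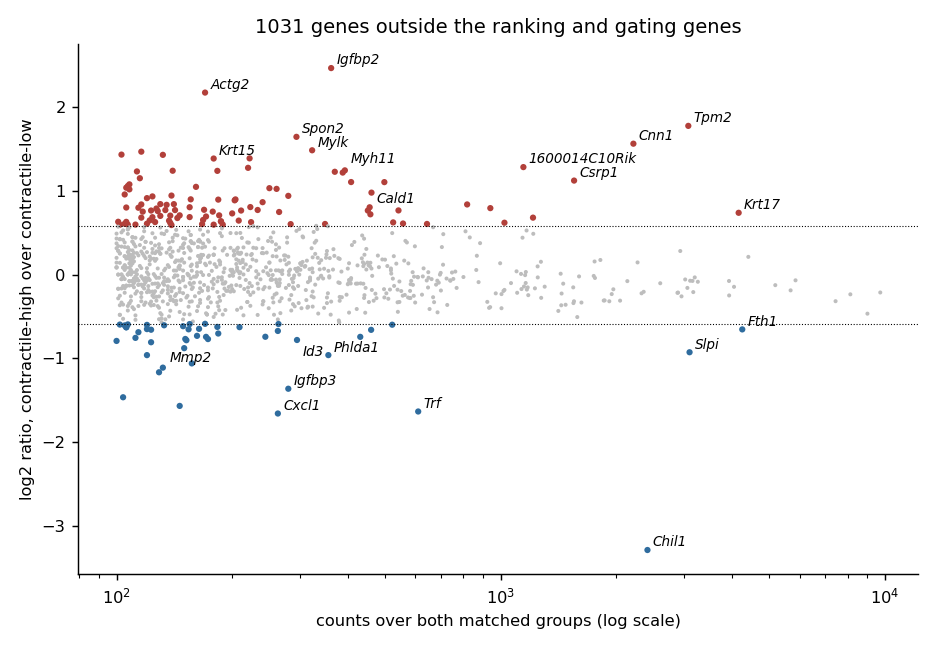
Log2 ratio of contractile-high to contractile-low matched cells against the counts of the gene over both groups (log axis), for 1031 genes. Red points are the 104 genes at least 1.5-fold higher in contractile-high cells, blue points the 47 at least 1.5-fold lower, grey points the rest, and dotted lines mark 1.5-fold. Tpm2 and Cnn1 stand out above and Chil1 below at high counts.

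Genes of the smooth muscle apparatus were higher where the ranking genes were higher. Of 44 listed genes 26 had enough counts, 21 of these were at least 1.5-fold higher in contractile-high cells and none was lower. All 26 ratios were above 1, with a median log2 ratio of 1.004. Together the listed genes held 376 counts per 10000 in contractile-high and 178 in contractile-low cells, with a median of 61 and 29 counts per cell. The list was drawn up with earlier results of these data known. The 5 genes that missed 1.5-fold included the cytoplasmic actin Actg1, at 1.404-fold, and the LIM protein gene Pdlim3, at 1.501-fold without and just under 1.5-fold with the pseudocount.

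Among proteins of the actin filament, the beta-tropomyosin gene Tpm2 (chr4:43514711-43523765, minus strand, GRCm38) had the most counts outside the ranking genes. Contractile-low cells held 0 to 21 Tpm2 counts with a median of 3, and contractile-high cells 0 to 40 with a median of 12.5. The ranges overlapped, but 163 of 174 contractile-high cells had 5 or more counts against 59 of 174. As a level this was 77.5 against 22.6 per 10000, a ratio of 3.43 (interval 3.16 to 3.74), with 0.325 per 10000 in luminal-keratin cells. Tpm1, which encodes alpha-tropomyosin, was 1.79-fold higher (1.55 to 2.07) and Tpm4 1.68-fold (1.31 to 2.18). Calponin, the product of Cnn1 (chr9:22099216-22109630, plus strand), binds actin and slows myosin. Cnn1 counts ran from 0 to 17 with a median of 2.5 in contractile-low cells, of which 45 had none, and from 1 to 47 with a median of 8 in contractile-high cells. Its level was 53.8 against 18.2 per 10000, a ratio of 2.96 (2.69 to 3.27). The related Cnn2 and Cnn3 were 1.87-fold and 1.52-fold higher.

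Actg2, the actin of visceral smooth muscle, had the second highest ratio of all genes compared, on few counts. It was found in 75 of 174 contractile-high and 20 of 174 contractile-low cells, with 139 and 31 counts and a ratio of 4.58 (3.08 to 6.99). Caldesmon, encoded by Cald1, was 1.98-fold higher (1.63 to 2.41), the actin-binding smoothelin Smtn 2.08-fold and leiomodin Lmod1, which nucleates actin filaments, 2.10-fold. Actins of every cell differed less, Actb by 1.61-fold (1.43 to 1.81) and Actg1 by 1.404-fold (1.251 to 1.577).

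Myosin and its regulators followed the same direction. Myh11, the heavy chain of smooth muscle myosin, stood at 8.97 against 3.77 per 10000, a ratio of 2.38 (1.91 to 2.98), and was found in 129 and 72 cells. For the kinase gene Mylk the values were 7.73 and 2.75 per 10000, a ratio of 2.81 (2.19 to 3.65), in 115 and 59 cells. Both sides of this switch were higher, for Ppp1r12a, which directs myosin phosphatase to myosin, was 2.04-fold higher (1.57 to 2.67). The essential light chain Myl6 was 2.35-fold higher (1.88 to 2.96). Of the non-muscle regulatory light chains, Myl12a was 1.54-fold higher (1.36 to 1.75), while Myl12b, with 36 and 56 counts, had too few counts to be compared.

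Proteins that anchor actin filaments to each other and to adhesions completed the pattern. The cross-linkers Flna, Actn4 and Actn1 were 2.44-fold, 2.38-fold and 2.16-fold higher. Csrp1, a LIM protein of the actin cytoskeleton, was at 34.5 against 15.8 per 10000, a ratio of 2.18 (1.96 to 2.43), and was found in 173 and 152 cells. The adhesion proteins Tgfb1i1 and Pdlim7 were 2.24-fold and 1.76-fold higher. Vinculin, encoded by Vcl, had 15 and 17 counts and was not compared.

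The receptor and calcium steps upstream of contraction differed less. Of 32 listed genes only 8 had enough counts, 2 were higher and none lower, with a median log2 ratio of 0.26. The oxytocin receptor gene Oxtr had 85 and 69 counts, a ratio of 1.26 whose interval of 0.905 to 1.75 includes 1. Rhoa, a GTPase that promotes contraction, gave 1.18 (0.871 to 1.60). The 2 genes that were higher encode proteins of caveolae, the membrane pits of smooth muscle cells. Cav1 was at 2.77 against 0.991 per 10000, a ratio of 2.80 (1.84 to 4.37), and Prkcdbp at 1.72-fold (1.246 to 2.386).

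Transcription factors thought to drive the contractile programme were mostly too scarce to compare. Srf had 11 and 8 counts and its cofactor Mkl1 8 and 5, and Myocd had none in either group. Mef2c, a factor of muscle cells, had 33 counts in 24 contractile-high cells and 4 counts in 4 contractile-low cells. Its ratio of 8.42 had an interval of 2.996 to 32.7, and the gene fell under the minimum of 100 counts. In the sorted basal library Mef2c had 24 and 18 counts, a ratio of 1.31 (0.684 to 2.57). Ctgf and Cyr61, which respond to YAP and SRF, gave 1.52-fold (1.23 to 1.90) and 1.07-fold (0.900 to 1.28).

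Keratins outside the gate also differed between the groups. Krt17 stood at 84.4 against 50.5 per 10000, a ratio of 1.67 (1.57 to 1.78). Its counts ran from 0 to 61 with a median of 5 in contractile-low cells and from 0 to 98 with a median of 10 in contractile-high cells. The difference in Krt17 moved with depth, with a log2 ratio of 0.25 in the shallower pairs and 1.11 in the deeper pairs against 0.74 in all pairs. In the sorted basal library, described at the end, Krt17 was 1.46-fold higher, under the threshold. Krt15, another keratin of basal cells, was 2.63-fold higher (1.89 to 3.73), but in 35 and 22 cells only, and 5 cells held 50.4% of its counts in the contractile-high group. Thinning every cell to 1000 counts lowered its log2 ratio from 1.39 to 0.22. Krt14 and Krt5, which the gate used, had ratios of 1.03 and 1.003.

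Igfbp2, a secreted binding protein of insulin-like growth factors, had the highest ratio of all genes compared (chr1:72824503-72852474, plus strand). Contractile-high cells held 0 to 23 counts with a median of 1, contractile-low cells 0 to 6 with a median of 0. It was found in 95 and 29 of 174 cells. The level was 9.99 against 1.79 per 10000, a ratio of 5.58 (4.19 to 7.56), with 0.0303 in luminal-keratin cells. Over the 4 quartiles it stood at 1.57, 3.49, 6.89 and 9.71 per 10000. Spon2, which encodes a secreted matrix protein, was at 7.24 against 2.30, a ratio of 3.15 (2.40 to 4.17), and was found in 102 and 46 cells. The uncharacterised gene 1600014C10Rik was at 26.4 against 10.8, a ratio of 2.44 (2.15 to 2.78). Ckb, the brain-type creatine kinase that buffers ATP, was 2.64-fold higher (1.95 to 3.59). Arhgap5, a GTPase-activating protein, and Fam129a were 2.74-fold and 2.72-fold higher, on 75 against 28 and 96 against 36 counts.

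At the other end, Chil1 separated the groups more than any gene compared (chr1:134182176-134190181, plus strand). It encodes a secreted chitin-binding glycoprotein without enzyme activity. Contractile-low cells held 0 to 110 Chil1 counts with a median of 7, and contractile-high cells 0 to 25 with a median of 0. Of the contractile-low cells 98 had 5 or more counts and 46 had none, and of the contractile-high cells 11 had 5 or more and 112 had none. The level was 70.1 against 7.15 per 10000, so that Chil1 was 9.80-fold lower in contractile-high cells (8.53 to 11.3). The contractile-high level was close to the 6.15 per 10000 of luminal-keratin cells. Along the quartiles Chil1 stood at 61.8, 26.8, 18.1 and 7.76 per 10000, lower at each step.

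Transferrin, encoded by Trf, carries iron and is made by luminal cells of the gland. It was at 4.76 against 14.8 per 10000, 3.11-fold lower in contractile-high cells (2.58 to 3.78), and was found in 73 and 119 cells. Luminal-keratin cells held 178 per 10000, far above both groups. Of 25 listed genes of luminal progenitors 3 were compared, all with a ratio below 1, and Trf alone passed 1.5-fold. The list summed to 1053 counts in contractile-high and 1446 in contractile-low cells. These sums include Trf itself, so they are not a value apart from it. Elf5 had 0 counts in both groups. The part of luminal RNA in the difference was not tested. Without the tenth of cells with the highest share of luminal marker counts the log2 ratio of Trf was -1.52, against -1.63 with them. Trf was itself 1 of those markers. Fgg, a fibrinogen chain, was 2.99-fold lower (2.04 to 4.49) and likewise had a higher level, 13.4 per 10000, in luminal-keratin cells.

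Genes of several secreted proteins were among those lower in contractile-high cells. Cxcl1, which attracts neutrophils, was 3.17-fold lower in contractile-high cells (2.38 to 4.29) and was found in 35 and 56 cells. Slpi, an inhibitor of neutrophil proteases, had the most counts of these genes. It was at 34.4 against 65.5 per 10000, 1.90-fold lower (1.76 to 2.05), although 123 and 124 cells contained it. Its counts ran to 137 in contractile-low and 85 in contractile-high cells, with medians of 5 and 2. Igfbp3, in contrast to Igfbp2, was 2.58-fold lower (1.98 to 3.401) and was found in 44 and 81 cells. Without Acta2 in the ranking its log2 ratio was -0.38 in place of -1.36, and the call was lost. The vascular growth factor Pgf was 2.26-fold lower, the chemokine Cxcl12 2.10-fold, and Ccl2 1.74-fold. Phlda1 and Fam132a were 1.95-fold and 1.85-fold lower. Ccl2 was present in 11 and 21 cells only, with 80.6% and 59.4% of its counts in 5 cells of each group, and its direction turned in other settings. Of 15 secreted factors compared, 1 was higher, Igfbp2, and 5 were lower, Igfbp3, Ptn, Ccl2, Cxcl12 and Slpi. Their median log2 ratio was -0.22, and 11 of the 15 ratios were below 1. Ptn, Cxcl12 and Slpi each missed the threshold in at least 1 other setting. With fewer than 3 luminal keratin counts Ptn had a log2 ratio of -0.090 and Cxcl12 of -0.50, and Slpi had -0.57 in the deeper pairs. Ptn stood at 107 per 10000 in luminal-keratin cells against 5.19 and 8.69 in the 2 groups. In the sorted basal library 14 of these genes were compared, Igfbp2 was higher and none was lower. The chemokine gene Cxcl14, with 1502 and 1612 counts, gave a ratio of 0.951 (0.886 to 1.02).

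**Figure D3:**
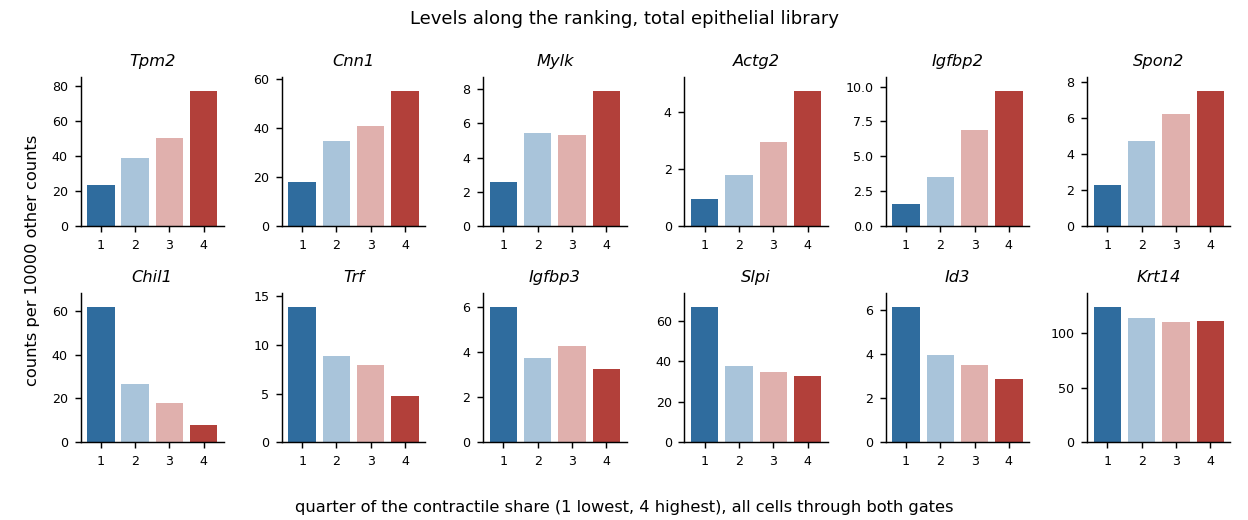
Counts per 10000 counts outside the ranking genes in each quartile of the contractile share (1 lowest, 4 highest), over all 953 cells through both gates without matching. Each bar is the summed level of 1 quartile, with no error bar since there was 1 library. Tpm2, Cnn1, Actg2, Igfbp2 and Spon2 increase at every step, Mylk is level between quartiles 2 and 3, Chil1 and Trf decrease at every step, Slpi is set apart in the bottom quartile, and Krt14 stays between 109 and 124.

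The contractile-low quartile was itself uneven. Its 238 cells were divided by their Chil1 counts after the values had been seen, so the division is a description. In 109 cells with 5 or more Chil1 counts, Trf stood at 20.9, Cxcl1 at 7.48 and Igfbp3 at 7.48 per 10000. In the 83 cells without Chil1 the levels were 4.50, 2.20 and 4.68, and in the 46 cells with 1 to 4 counts they were 7.79, 6.54 and 4.03. Slpi was lowest beside Chil1, with 45.5 per 10000, and stood at 97.5 in the middle cells and 88.3 in cells without Chil1. In the sorted basal library Cxcl1 had no steady order along Chil1. It stood at 0.428 per 10000 in 36 cells with 5 or more Chil1 counts, 1.46 with 1 to 4 and 0.999 without. These levels rest on few counts, since 395 of 414 matched contractile-low cells there held no Cxcl1. Higher without Chil1 in the total epithelial library were Krt14, with 106 beside Chil1 and 159 without it, and Tpm2, with 18.2 and 32.0. The median contractile shares were close, 1.13% and 1.24%, whereas the median depths were 1731 and 1213 counts. Depth and Chil1 therefore cannot be told apart within this quartile. A setting chosen after seeing the data left out the tenth of all 953 cells with the highest Chil1 share. It gave log2 ratios of -1.99 for Chil1, -0.65 for Trf, -1.08 for Slpi and -0.88 for Cxcl1. Fgg then stood at -0.56 and Fth1 at -0.37, in place of -1.57 and -0.65, and neither passed 1.5-fold.

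Matrix genes showed no common direction. Of 40 listed genes of laminins, collagens and the basement membrane 10 were compared, 1 was higher and 2 were lower, with a median log2 ratio of 0.13. The higher gene was Postn, which encodes the matrix protein periostin, at 8.81 against 3.77 per 10000, a ratio of 2.34 (1.88 to 2.93). The lower genes were Col9a2 (1.96-fold) and Col16a1 (1.76-fold), minor collagens, and Col9a3 outside the list was 2.79-fold lower. Mmp2, which degrades basement membrane collagen, was 2.17-fold lower in contractile-high cells (1.49 to 3.22). Some of these calls were lost in other settings. With cells thinned to 1000 counts Mmp2 had a log2 ratio of -0.49 and Col9a2 of -0.29. Col16a1 had -0.24 with fewer than 3 luminal keratin counts. Sparc, a collagen-binding protein of basal cells, gave a ratio of 0.978 (0.874 to 1.09). Among integrins and hemidesmosome genes, Itgb1 gave 1.12 and Itga6 1.03, and only Perp, a desmosome protein, passed 1.5-fold of the 6 compared, at 1.71-fold (1.43 to 2.04).

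Transcription factors listed for basal cells were lower or did not pass. Of 28 listed genes 7 were compared, none was higher and 4 were lower, with all 7 ratios below 1 and a median log2 ratio of -0.62. Id2 and Id3, inhibitors of helix-loop-helix factors, were 1.71-fold (1.24 to 2.37) and 1.72-fold lower in contractile-high cells. Egr2 was 1.68-fold lower (1.28 to 2.20) and Sox4 1.55-fold lower (1.14 to 2.11). Sox4 was not particular to basal cells, at 2.25 per 10000 in luminal-keratin cells against 2.32 in contractile-high and 3.58 in contractile-low cells. Sox4 had a log2 ratio of 0.0047 when Acta2 was left out of the ranking and -0.038 with fewer than 3 luminal keratin counts. Id2, Id3 and Egr2 also missed 1.5-fold in other settings. The log2 ratio of Id3 was -0.35 without Acta2 in the ranking. With cells thinned to 1000 counts Egr2 had -0.48 and Id2 -0.584. In the sorted basal library 9 listed factors were compared, 1 was lower, Klf5, and 3 ratios were above 1, with a median log2 ratio of -0.24. Egr2 and Sox4 were 1.18-fold and 1.30-fold lower there, and Id2 and Id3 had too few counts to compare. Trp63, which specifies the basal lineage, had 21 and 39 counts, and Snai2 had 7 and 7, too few to compare. In the list of genes proposed for mammary stem cells and Wnt signalling, 5 were compared. Vim, encoding vimentin, was 1.54-fold higher (1.29 to 1.85) and the Wnt inhibitor Wif1 1.58-fold lower (1.31 to 1.92). Both missed the threshold in other settings. Vim had a log2 ratio of 0.34 in the shallower pairs, and Wif1 had -0.22 without matching for total count.

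Of 29 immediate-early genes, which respond to tissue dissociation, 26 were compared and 1, Cxcl1, passed 1.5-fold. The median log2 ratio was -0.13 and 19 of the 26 ratios were below 1, as were 21 of 25 in the sorted basal library. Fos gave a ratio of 0.955 (0.907 to 1.01), Jun 0.893 (0.797 to 1.001) and Junb 0.863 (0.829 to 0.898). With deciles in place of quartiles the log2 ratio was -0.70 for Jun and -0.49 for Fos. Leaving out the tenth of cells with the highest share of immediate-early counts gave 94 higher and 40 lower genes. Of 12 heat shock genes compared, Cryab alone passed, at 1.94-fold higher (1.35 to 2.81). Ribosomal protein genes, 63 compared, included 1 higher and 1 lower gene with a median log2 ratio of -0.13. Of 12 metallothionein and redox genes, Fth1, the ferritin heavy chain that stores iron, was 1.57-fold lower in contractile-high cells (1.48 to 1.67), with a median of -0.23 for the list. Malat1, a nuclear RNA, was 1.24-fold lower (1.19 to 1.30). Annexin and S100 genes had a median log2 ratio of 0.46 over 6 genes, none of which passed 1.5-fold, and 9 genes of glycolysis had 0.17. The 3 mitochondrial genes compared had a median of 0.10 and none passed. For antigen presentation 1 of 8 genes passed, Tapbp, at 1.72-fold higher. Of 23 cell cycle genes 2 were compared and neither passed, and Mki67 had 0 counts in both groups.

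**Figure D4:**
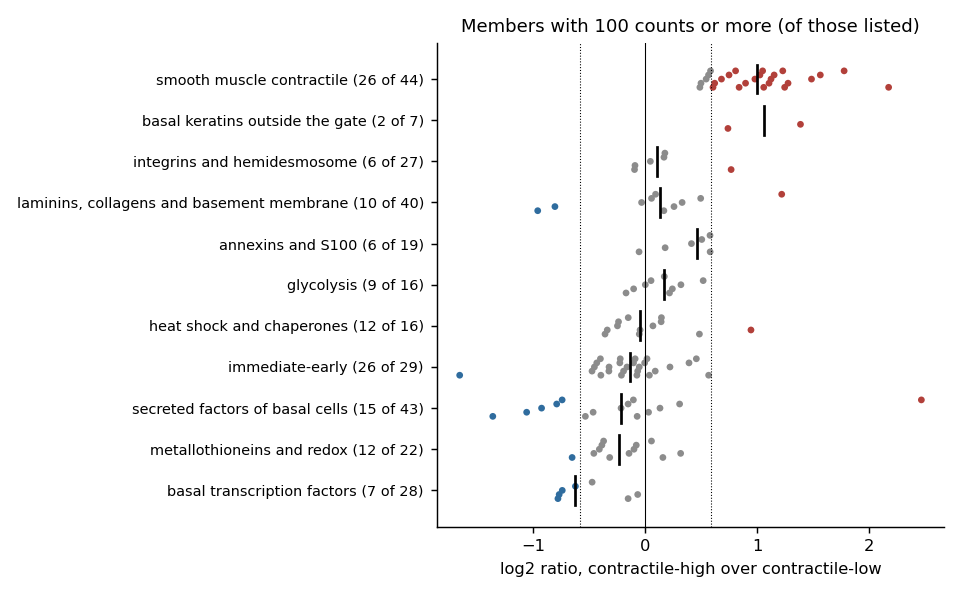
Log2 ratio of contractile-high to contractile-low matched cells for the compared members of 11 gene lists. Each point is a gene, red where at least 1.5-fold higher and blue where at least 1.5-fold lower, black bars are the list medians, and dotted lines mark 1.5-fold. The 26 smooth muscle genes all lie to the right of 0 with a median of 1.004, and the 7 basal transcription factors all lie to the left.

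The same gates and ranking were applied to the library of sorted basal cells, a separate sample by its label. Its cells were shallower, at 487 counts for the median cell. Of 4771 cells, 1956 passed both gates, each quartile held 489, and 414 pairs were matched. At that depth the ranking rested on few molecules. Acta2 had a median of 1 count in contractile-low and 10 in contractile-high cells, and Myl9 was at 0 in 367 and 231 of the 414 cells of each group. Ranked by the other 2 genes, Acta2 was 1.38-fold higher (1.29 to 1.47), Myl9 1.48-fold (1.22 to 1.80) and Tagln 1.76-fold (1.53 to 2.03). Of 846 genes with enough counts, 60 were higher (7.09%) and 37 lower (4.37%).

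Both libraries had enough counts for 644 genes. In the total epithelial library 64 of these were higher and in the sorted basal library 40, and 19 were higher in both, which is 29.7% of the former and 47.5% of the latter. For the lower genes the counts were 30 and 23, with 7 in both (23.3% and 30.4%), and no gene was called in opposite directions. Over all 644 genes 6.21% were called higher and 3.57% lower in the sorted basal library. Of the 64 higher genes 56 (87.5%) had a ratio above 1 in the sorted basal library, where 53.1% of all 644 genes did. Of the 30 lower genes 21 (70.0%) had a ratio below 1, against 46.9% of all genes.

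The genes higher in both libraries included 9 of the smooth muscle list, Cnn1, Cnn2, Csrp1, Myh11, Myl6, Mylk, Ppp1r12a, Tpm1 and Tpm2. In sorted basal cells Myh11 was 2.21-fold higher (1.88 to 2.61), Cnn1 2.09-fold (1.83 to 2.40), Mylk 1.98-fold (1.67 to 2.36) and Tpm2 1.56-fold (1.34 to 1.81). Over the smooth muscle list 26 genes were compared there, 9 were higher and 1, Lpp, lower, with a median log2 ratio of 0.52 and 23 ratios above 1. Igfbp2 again had a high ratio, 3.91 (2.58 to 6.10), although 349 of 414 contractile-high and 391 of 414 contractile-low cells held none. Spon2 was 1.82-fold higher (1.35 to 2.47), Krt15 2.06-fold (1.49 to 2.87), 1600014C10Rik 1.96-fold (1.60 to 2.41) and Tmsb4x, which sequesters actin monomers, 2.10-fold (1.54 to 2.89). Ckb was not higher there, with 50 and 52 counts. Cnn3, with 247 and 245 counts, and Tapbp, with 96 and 95, were level between the groups there. Vim gave a ratio of 1.16 (0.936 to 1.43), under the threshold. The lower genes in both were Adamts1, Chil1, Ddx3x, Mmp2, Phlda1, Trf and Wif1. Chil1 was 3.25-fold lower (2.70 to 3.93) and Trf 2.94-fold lower (2.47 to 3.52). For Mmp2 the value was 2.18-fold lower (1.62 to 2.94). Slpi and Igfbp3 pointed the same way without passing 1.5-fold, 1.38-fold lower (1.23 to 1.56) and 1.255-fold lower (1.001 to 1.58). Col9a3, Fgg and Fth1 had ratios of 1.01, 1.05 and 1.01 there. The 2 libraries differed in depth and in sort, which cannot be told apart as sources of these differences.

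**Figure D5:**
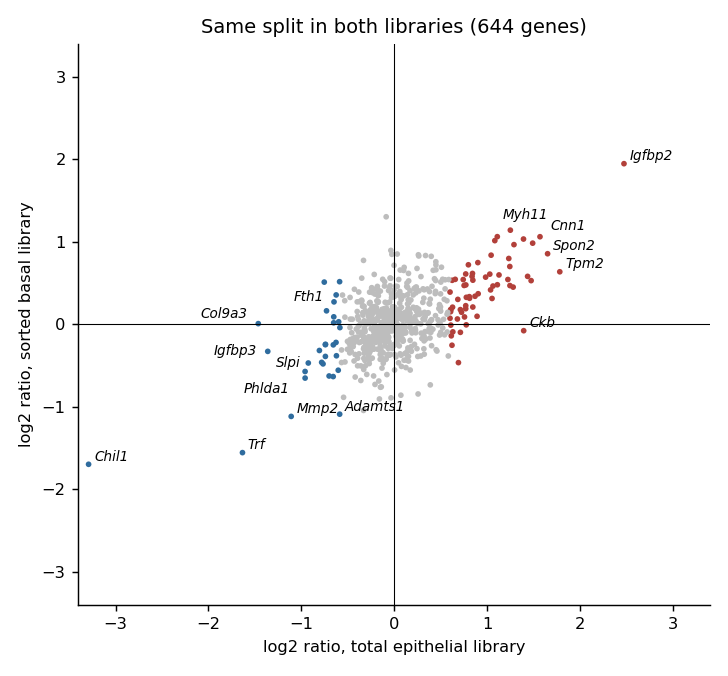
Log2 ratio of contractile-high to contractile-low matched cells in the sorted basal library against that in the total epithelial library, for the 644 genes with 100 or more counts in both. Red and blue points are genes at least 1.5-fold higher or lower in the total epithelial library and grey points the rest. Igfbp2, Cnn1 and Myh11 are high and Chil1, Trf and Mmp2 low in both, while Ckb and Col9a3 lie near 0 in the sorted basal library.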

How the data were processed

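Single-cell RNA-seq (10X Genomics Chromium, 3′ protocol) of 2 libraries, 3302 total epithelial and 4771 sorted basal cells as labelled, was analysed. The authors deposited whole-number counts of molecules per gene and cell, without normalization, over 27998 genes. Per the labels, reads were processed with Cell Ranger 1.2.1 on mm10, while the study's methods name a later Cell Ranger version. Molecule counting and the choice of cell barcodes preceded deposit and cannot be repeated here, and reads shared by near-identical genes are usually lost, so related actins and tropomyosins are less certain. All deposited cells were used, no doublet caller was run, and the luminal keratin gate removed 226 cells with both keratin types.

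Basal cells were gated, ranked and matched as described above (optimal 1 to 1 assignment on log2 total count within 0.1, scipy 1.17.1). Summed counts of each group were divided by its counts outside the 3 ranking genes. Log2 ratios used a pseudocount of 0.5. Ratio intervals are exact Clopper-Pearson intervals at 95%. With 1 library per group no p-value was computed. A gene was called at 1.5-fold among genes with 100 or more counts. The script was tested on simulated data with Python 3.11.15, numpy 2.4.6 and pandas 2.3.3. Figures used matplotlib 3.10.9.

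Named genes are the 15 with the highest and the 15 with the lowest ratio, and members of 26 gene lists. Members and lists were chosen with earlier results of these data known. Gene positions come from GENCODE for GRCm38, upstream sequences from RefSeq. Alternatives covered the denominator, count minimum, fold, matching, depth, group size, ranking genes, gates, cells of other types, averaging and library.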

Additional observations from a re-analysis of the deposited data

How the results depend on the processing

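The counts of 104 higher and 47 lower genes stayed within 1.5 times under most settings of the ranking, matching and gates, but the genes were partly others. Without Acta2 in the ranking 60 of the 104 and 23 of the 47 were called again, without matching 76 and 31, and with quartiles taken within bins of depth 68 and 27. They changed with the rule for calling and with the number of cells. With a minimum of 10, 50 or 200 counts the higher genes numbered 1195, 242 and 42 and the lower genes 936, 131 and 15. With a log2 ratio of 0.32 as threshold they numbered 231 and 152, and with a fold of 2 they numbered 30 and 9. Fewer than 3 luminal keratin counts left 92 pairs, with 42 higher and 25 lower genes. The higher genes alone moved with cells thinned to 1000 counts (56), with deciles in place of quartiles (42), without any cell that held a defining marker of another type (69) and in the sorted basal library (60). Of settings chosen after seeing the data, leaving out the top decile in Chil1 gave 69 and 29, and the pairs under the median depth gave 29 and 19. The log2 and fold thresholds change the call alone, and the other settings change the genes or cells that enter. No other cause was tested. The median log2 ratio of the smooth muscle list ranged from 0.52 in sorted basal cells to 1.33 with deciles. Over 59 named genes, 940 of 1180 values lay within the counting interval of the value given above, 232 moved and 8 turned. In the sorted basal library the log2 ratio was -0.076 for Ckb, 0.0091 for Col9a3, 0.076 for Fgg and 0.019 for Fth1. Ccl2 gave 0.41 without cells holding a defining marker and 0.51 in the pairs under the median depth. Without Acta2 in the ranking Sox4 gave 0.0047 and Adamts1 0.18. The cause of these was not tested. No paired analysis was possible because each sort is 1 library and the labels give no replicate numbers. Depth limits genes under 100 counts, among them most transcription factors and receptors.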

Other observations

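Some gene groups outside the lists were defined after their values had been seen, and their counts are given as descriptions. Genes of actin filament turnover went with the contractile genes. Of 18 compared in the total epithelial library, 7 were at least 1.5-fold higher in contractile-high cells, namely Tmsb4x, Pls3, Actr3, Wdr1, Pfn1, Capzb and Dstn, and none was lower, with a median log2 ratio of 0.42. Over all genes compared 10.1% were higher and 4.56% lower. Pfn1, whose product profilin delivers actin monomers to growing filaments, was at 19.3 against 11.1 per 10000, a ratio of 1.74 (counting interval 1.52 to 1.99), and 1.65 in the sorted basal library. In that library 4 of 16 were higher and 1 was lower.

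Proteasome subunits were a second group. Of 24 compared, 22 had a ratio above 1 and 7 were at least 1.5-fold higher, Psma6, Psmb3, Psmc2, Psmc3, Psmc5, Psmd6 and Psmd8, with a median log2 ratio of 0.24 beside 0.0057 over all genes. Only 3 had enough counts in the sorted basal library, where none was called. Target and feedback genes of TGF-beta and BMP signalling lay on the other side. All 7 compared had a ratio below 1, with a median of -0.67. Of these, 5 were at least 1.5-fold lower, Smad7, Bambi, Skil, Id2 and Id3. Id2 and Id3 were already counted among the basal transcription factors above, so the 2 groups overlap. In sorted basal cells 3 genes of the group were compared and none was called. Of 6 subunits of respiratory complex I compared, 2 were at least 1.5-fold higher, Ndufa8 and Ndufb8, with a median of 0.24, and the 1 compared in sorted basal cells had a log2 ratio of -0.36.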
